A study of Drosophila melanogaster with 3 samples.

Results

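Deep intronic binding of Tinman was examined at 620 peaks, 11.3% of the 5508 peaks that passed the irreproducible discovery rate (IDR) threshold of the study (Wilson 95% interval 10.5% to 12.1%). A peak was counted when its summit lay inside a protein-coding transcript, outside the coding sequence and UTRs of every transcript, and more than 5000 bp from the nearest protein-coding transcription start site (TSS). Starts of noncoding genes were not counted, and 536 IDR peaks (9.73%) still met the distance when starts of every biotype were. The rule used position only, and neither the score of a peak, its sequence nor its host gene. The chromatin came from 3 biological replicates of whole transgenic Drosophila melanogaster embryos aged 0 to 16 h, with males and females mixed. All 3 carried a stably inserted tin gene whose product has GFP at its C terminus, and there was 1 group and no second genotype or treatment. The labels' description gives an antibody against GFP for the precipitation, while their antibody field names tin, so it is not known whether untagged Tinman was also precipitated. Embryos of all these ages and all their cells were pooled, so a peak has no tissue or stage of its own here.

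Tinman is a homeodomain protein of the NK-2 class that is needed to specify the heart, the visceral mesoderm and other dorsal mesoderm of the fly embryo. It binds DNA at a short core that contains AAGTG. Fly genes that control development often hold long introns, and enhancers, the stretches of DNA that set when and where a gene is transcribed, can lie in such introns far from any promoter. A summit in an intron does not by itself say which gene it acts on. Here the gene whose transcript holds the summit is called the host.

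The 4 highest-scoring members with a Tinman site near the summit, outside 1 chromosome arm that is left out here, are shown as stretches of 30 bases because the site is the sequence that the protein is known to bind. A Tinman site is TCAAGTG or TTAAGTG on either strand, within 50 bp of the summit. Coordinates are on dm6, and all sequences are the + strand of the RefSeq Release 6 assembly. The stretches lie at chr3R:14012722-14012751 in rdx, chr2L:2433587-2433616 in dpp, chr3L:21652910-21652939 in CG43980 and chr3R:15087814-15087843 in CG6966. Capitals mark the site, which is on the + strand in rdx and on the opposite strand, as CACTTGA or CACTTAA, in the others.
rdx: aaattgaatgcTTAAGTGtatgggtataaa
dpp: tgtaaaaagaaCACTTGAagcaagaagaac
CG43980: atatacaagacCACTTAAgcgccacctaca
CG6966: ctttaatagcaCACTTAAttcatagcaatg
None of these 4 sites lay on the summit base itself: the site centre was 16 bp to the left of the summit in rdx, 38 bp in dpp and 45 bp in CG43980, and 44 bp to its right in CG6966.

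The deposited scores of the 620 members, which are the peak caller's own values, had a median of 226.1 (quartiles 178.8 and 331) and a maximum of 1807. The median over all 5508 IDR peaks was 252.6. The highest-scoring member lay in osa, which encodes a subunit of the Brahma chromatin remodelling complex, at chr3R:17704214-17704599, 13954 bp from the nearest TSS. It had rank 46 in the IDR list, and its entry had rank 41 in replicate 1, 52 in replicate 2 and 47 in replicate 3. These ranks are positions in each replicate's own list. The next was in Gug, the fly Atrophin corepressor, at chr3L:8458105-8458525, with rank 75 in the IDR list and ranks 75, 66 and 86 in replicates 1, 2 and 3. The osa and Gug peaks therefore stood within the first 100 entries of every replicate. Like the members that follow, they were picked by score in a list made from these same replicates. High ranks in each replicate are therefore not independent of that choice.

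Among the next members, a summit shared by the overlapping transcripts of Hr3, CG12912 and CG46321 had rank 79 in the IDR list and ranks 74, 84 and 78 in replicates 1, 2 and 3. Hr3 is a nuclear receptor of the ecdysone response. The CG32486 peak had rank 81 in the IDR list and ranks 113, 103 and 58. The 3 replicates thus put the Hr3 peak within 10 ranks of each other, and replicate 3 put the CG32486 peak highest. The peak in sbb, a transcriptional corepressor, had rank 114 in the IDR list and ranks 119, 76 and 183. A peak in tara, a nuclear regulator of the cell cycle, had rank 132 in the IDR list and ranks 167, 104 and 156. Replicate 2 ranked both highest.

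The replicates spread more widely at fz, which encodes the Frizzled receptor of Wnt and planar polarity signalling. Its peak at chr3L:14303893-14304246, 25281 bp from a TSS, had rank 159 in the IDR list, and ranks 290, 83 and 230 in replicates 1, 2 and 3. The peak in rdx, a Cullin adaptor that acts on Hedgehog signalling, had rank 200 in the IDR list and ranks 347, 145 and 172. Replicate 1 gave the lowest rank at both. In simj, a subunit of the NuRD complex, summits of rank 170 and 231 stood next to each other in overlapping peaks, and the same replicate entries (ranks 170, 153 and 219) overlapped both, so they are not separate observations. JIL-1, a histone kinase, had a member of rank 171 with ranks 163, 158 and 226. Hr4, another ecdysone-response nuclear receptor, had members of rank 222, 234 and 238 among the 15 highest, and Tis11, an RNA-binding protein that promotes mRNA decay, had one of rank 237. The Tis11 peak had ranks 262, 149 and 471, with replicate 3 lowest.

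**Figure D1:**
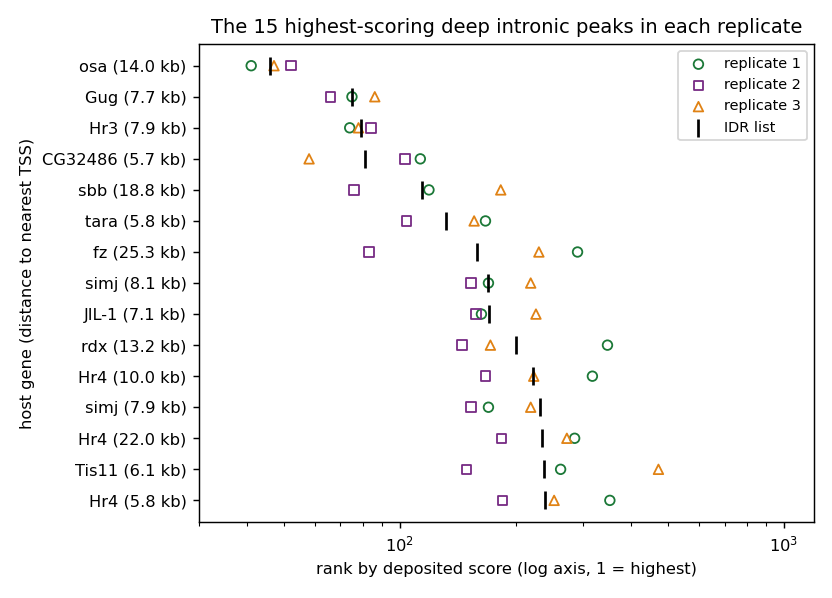
Rank by deposited score (log axis, 1 is the highest) of the 15 highest-scoring deep intronic peaks, each row named by its host gene and its distance to the nearest TSS in kb; open symbols are the entries of the 3 replicates and the bar is the IDR list. The osa entries lie between rank 41 and rank 52, while those of fz lie between rank 83 and rank 290, and the simj rows share their replicate entries.

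Deep intronic summits were fewer among the strong peaks than in the rest of the list. Of the pooled entries, which the authors called on all replicates together, 5104 of 30000 (17.0%) met the same position rule. Of these, 620 were IDR peaks (12.2%), against 4888 of the other 24896 pooled entries (19.6%). The background share over all pooled entries was 18.4%. The difference was -7.49 percentage points (Newcombe 95% interval -8.49 to -6.44) and passed Fisher's exact test, two-sided, with p = 3.83e-39. The IDR list holds exactly the pooled entries with the best scores, so this share is a statement about scores. As for every p-value over peaks here, it describes these peaks and not the variation between embryos.

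Within the IDR list, the order by score continued in the same direction. The share of deep intronic peaks was 7.54% in the highest-scoring quintile, 10.4%, 10.99% and 13.4% in the quintiles that followed, and 13.9% in the lowest. Of the members, 83 (13.4%) fell in the highest-scoring quintile, against 1018 of the other 4888 IDR peaks (20.8%), where 20% of all peaks lie by construction. The difference was -7.44 points (interval -10.2 to -4.33, Fisher's exact test, adjusted p = 1.41e-05). Promoter peaks, with a summit within 500 bp of a TSS, had 24.2% of 2716 in that quintile, and the difference of deep intronic from promoter peaks was -10.8 points (Fisher's exact test, adjusted p = 6.34e-09). Against intronic peaks over 500 and up to 5000 bp from a TSS, of which 18.1% of 1160 were in the highest quintile, the difference was -4.72 points (Fisher's exact test, adjusted p = 0.0144). Intergenic peaks over 5000 bp from a TSS had 14.2% of 437 there. The deep intronic share differed from that by -0.80 points, with an interval from -5.15 to 3.35 points (Fisher's exact test, adjusted p = 0.717), so a gap of some points in either direction was not detectable. These p-values were adjusted over the 4 comparisons by the method of Benjamini and Hochberg (BH).

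**Figure D2:**
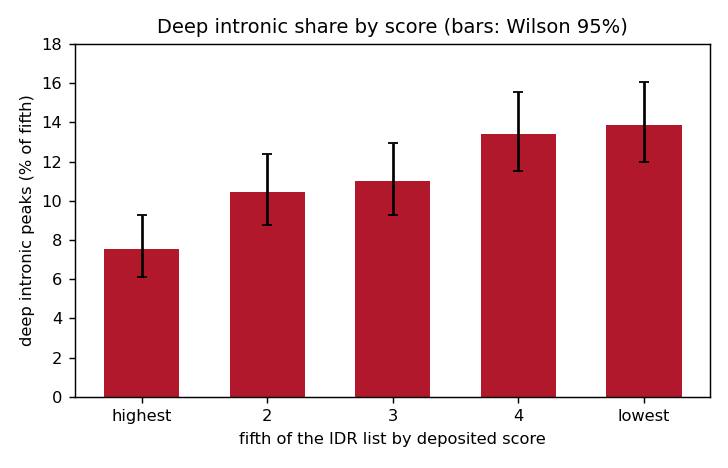
Share of deep intronic peaks (percent) in each quintile of the 5508 IDR peaks ordered by deposited score, highest quintile at the left; error bars are Wilson 95% intervals. The share is 7.54% in the highest quintile and 13.9% in the lowest.

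Most members overlapped a high-scoring entry in every replicate. The IDR list was made from these same 3 replicates, so such an overlap is not an independent detection. Each replicate's list was limited to its 5508 highest-scoring entries, and a peak counted as found when such an entry overlapped it. Of the 620 members, 430 (69.4%) were found in all 3 replicates, 132 in 2, 58 in 1 and 0 in none. Over all IDR peaks, 72.5% were found in all 3. The share of members was -3.60 points from that of the other IDR peaks (72.9%, interval -7.53 to 0.12, Fisher's exact test, adjusted p = 0.0896) and -4.18 points from that of the nearer intronic peaks (73.5%, adjusted p = 0.0896). It was 3.45 points from that of intergenic peaks over 5000 bp from a TSS (65.9%, exact test, adjusted p = 0.255). The difference from promoter peaks, at -5.13 points from 74.5%, passed the exact test (adjusted p = 0.0402), but it was 0.11 points without replicate 1 (adjusted p = 1) and -1.21 points when the overlap had to cover 50% of the peak (adjusted p = 0.654). All 4 are Fisher's exact tests, two-sided. Without replicate 2 the differences from the other IDR peaks (-5.52 points, exact test, adjusted p = 0.00345) and from the nearer intronic peaks (-4.99 points, exact test, adjusted p = 0.0216) passed. With the replicate lists limited to 3000 entries, members were found in all 3 replicates less often than the other IDR peaks, by -10.1 points (exact test, adjusted p = 2.71e-06).

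Members were found in the replicates in the same order as other peaks away from promoters. Of the members, 83.2% were found in replicate 1, 88.2% in replicate 2 and 88.5% in replicate 3. The promoter peaks were found to 93.2% in replicate 1, 86.2% in replicate 2 and 87.8% in replicate 3, so replicate 1 was the lowest for deep intronic peaks and the highest for promoter peaks. It was also the lowest for the nearer intronic peaks, with 87.2%, 88.2% and 90.7% in the same order, and for remote intergenic peaks, with 78.9%, 87.2% and 88.3%. Where all 3 replicates held an entry at any rank, replicate 1 gave the lowest rank at 284 of 616 members (46.1%), 44.5% of nearer intronic peaks, 46.98% of remote intergenic peaks and 767 of 2674 promoter peaks (28.7%). The replicates' own highest 5508 entries showed the same split. Deep intronic entries made up 10.4% of them in replicate 1 (572 entries), 11.8% in replicate 2 (651) and 11.9% in replicate 3 (653), with a mean of 11.3% ± 0.84 (SD, n = 3). Promoter entries made up 52.1%, 47.4% and 47.1% in the same order. With 3 samples of 1 group no test of replicate 1 against the others was made, and the lists hold no read counts that would give the depth of each.

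Position along the intron was the next property examined. The distance from the summit to the nearest TSS had a median of 9551 bp (quartiles 6730 and 14623) and reached 76905 bp. Sequence that met the position rule amounted to 30.2 Mb, 22.6% of the 6 chromosome arms, and held 20.5 members per Mb, against 51.7 peaks per Mb in intronic sequence over 500 and up to 5000 bp from a TSS, 16.8 per Mb in intergenic sequence beyond 5000 bp and 41.1 IDR peaks per Mb over the arms as a whole. Members were less dense the farther the sequence lay from a TSS. There were 31.7 members per Mb between 5000 and 7500 bp from a TSS and 30.5 between 7500 and 10000 bp. The density was 24.0 between 10000 and 15000 bp, 18.3 between 15000 and 25000 bp and 6.26 beyond 25000 bp. All entries of the pooled list fell too, with 230 per Mb in the nearest of these ranges and 68.4 in the farthest, and annotated transposable elements covered 7.34% of the nearest and 10.8% of the farthest. The part of either in the density of members was not tested. Of the pooled entries in these ranges, 13.8% of 1442 were IDR peaks in the nearest and 9.15% of 590 in the farthest.

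**Figure D3:**
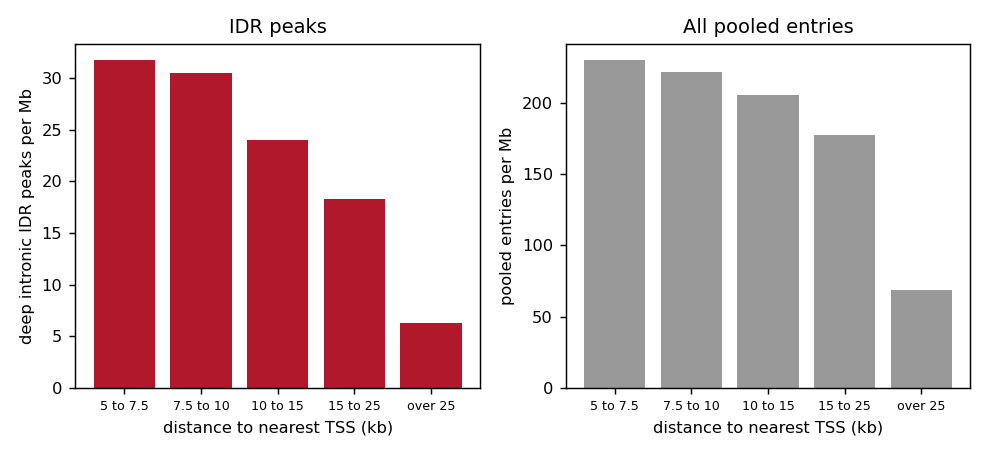
Deep intronic IDR peaks per Mb (left) and all deep intronic entries of the pooled list per Mb (right) by distance to the nearest protein-coding TSS in kb. Both fall with distance, to 6.26 IDR peaks per Mb and 68.4 pooled entries per Mb beyond 25 kb.

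The members farthest from a TSS were in hth and Sema1a. The hth peak, at chr3R:10537156-10537585, lay 76905 bp from the nearest TSS and had a score of 304.1. The Sema1a peaks, in the gene of a transmembrane semaphorin that guides axons, lay 61653 and 59743 bp away, with scores of 217.3 and 147.6. At the other end, the members just inside the distance limit were in Egfr (5017 bp, score 184.1), Klp98A (5060 bp, score 221.4) and Tis11 (5066 bp, score 535.6). The intronic peaks just outside it were in cv-c (4998 bp, score 408), Ac13E (4997 bp, score 287.8) and tara (4997 bp, score 555.7).

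By intron number, taken from the shortest intron at the summit, 259 members (41.8%, Wilson interval 37.9% to 45.7%) lay in the first intron of a transcript, while first introns made up 24.4% of the deep intronic sequence. In the replicates' own highest entries the share was 42.7% ± 1.46 (SD, n = 3). A further 218 members (35.2%) lay in a second intron, against 29.9% of the sequence, and 19 (3.06%) lay in a sixth or later intron, against 21.7% of it. Members were less dense farther from a TSS, and first and later introns were not matched for that distance. The part of distance in these shares was not tested. The members' introns had a median length of 17972.5 bp. The nearest protein-coding TSS belonged to the host for 435 members (70.2%) and to another gene for 185. Such a nested or neighbouring start was nearest, for example, at the fz member of rank 159 (CG13482) and at both simj members described above (CG11811).

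Transposable elements covered 8.77% of the deep intronic sequence, but held 1 member (0.161%), in Ten-a, and 15 of the 4484 other pooled entries of this kind (0.335%). No label says how reads that map to repeats were treated. Within 500 bp of the start of a noncoding gene lay 13 members (2.10%), against 1.41% of the other deep intronic pooled entries and 0.995% of the sequence. The summit was in an exon of a noncoding RNA for 6 members (0.968%), against 0.959% of those other entries and 0.730% of the sequence. They lay in osa, Socs36E, puc, nkd, Antp and scrib. The osa peak of rank 46 was among them, in lncRNA:CR46035.

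Along the chromosome arms, members per Mb of deep intronic sequence were 27.8 on X (144 members), 24.3 on 2L (112), 20.1 on 3L (121), 18.7 on 3R (167) and 14.7 on 2R (76). Chromosome 4 held 0 members in 0.288 Mb, and 5 entries of the pooled list. The order of the arms for all deep intronic pooled entries was the same, from 230.9 per Mb on X to 133.8 on 2R among the 5 large arms.

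The nearest other IDR summit was within 1000 bp for 85 members (13.7%) and within 5000 bp for 294 (47.4%), with a median distance of 5384 bp. Peaks of 30 members overlapped the peak of another member.

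Base composition set the summits apart from the sequence beside them. The window of 50 bp either side of the summit had a mean GC content of 33.0% ± 7.57, and the windows of the same length 500 bp to either side had 42.4% ± 6.59 (SD over 620 members). The summit was lower in 522 members and higher in 88, with a mean difference of -9.36 points and an exact sign test p = 5.34e-76, two-sided. In the replicates' own deep intronic entries the summits averaged 33.5% ± 0.54 and the flanks 42.2% ± 0.27 (SD, n = 3). The whole IDR list had 35.4% at the summit and 44.1% in the flanks, so the low GC content was not confined to deep introns.

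The profile around the summit had one shape in deep introns, nearer introns and remote intergenic sequence and another at promoters. In 20-bp bins, mean GC content was 32.2% just left of the summit, 46.2% at 250 bp to its left and 39.9% at 990 bp to its left. To the right it was 45.6% at 170 bp and 41.1% at 990 bp. The summit was thus an AT-rich core between shoulders richer in GC than the sequence farther out. Promoter peaks had 36.9%, 43.0% and 45.6% GC at the same 3 positions on the left and showed no such shoulders. At those positions remote intergenic peaks had 32.5%, 47.1% and 40.6%, and the nearer intronic peaks had 32.9%, 44.6% and 40.7%.

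**Figure D4:**
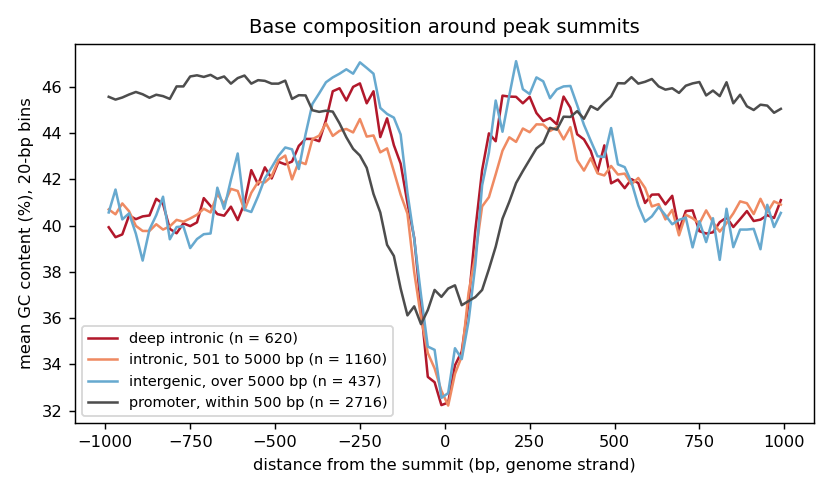
Mean GC content (percent) in 20-bp bins against distance from the summit in bp on the genome strand, for 620 deep intronic, 1160 nearer intronic, 437 remote intergenic and 2716 promoter peaks. Deep intronic peaks fall to 32.2% next to the summit and reach 46.2% at 250 bp to the left, and promoter peaks lack the shoulders.

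Tinman sites lay in this summit window in 41 members (6.61%, Wilson interval 4.91% to 8.85%). The left flank had one in 27 (4.35%) and the right flank in 15 (2.42%). Over the summits of all IDR peaks the share was 4.23%. The difference between summit and left flank was 2.26 points (interval -0.30 to 4.82) and did not pass the exact McNemar test (p = 0.109, adjusted p = 0.290 over 16 motifs). Against the right flank it was 4.19 points and passed the same exact test (adjusted p = 0.00323), so the call depends on the side. Among 19 windows spaced 100 bp apart, the one 100 bp to the right of the summit held a site in 43 members (6.94%) and the one 800 bp to the left in 40 (6.45%), while the right flank was the second lowest. With a window of 25 bp either side of the summit there was no excess, 18 members against 20. In the replicates' own highest entries the summits held a site in 7.17%, 6.91% and 6.74% of deep intronic entries (mean 6.94% ± 0.22), the left flanks in 3.75% ± 0.60 and the right flanks in 3.44% ± 0.55 (SD, n = 3). The summit share was above both flank shares in each replicate. These entries largely overlap the members and are not independent of them.

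Compared with other classes of peak, Tinman sites were commoner at deep intronic than at promoter summits, 6.61% against 3.28%, a difference of 3.34 points (interval 1.48 to 5.65, Fisher's exact test, adjusted p = 0.00163 over 16 motifs). Among the 2754 higher-scoring IDR peaks, with 254 members, the difference was 3.61 points and did not pass (exact test, adjusted p = 0.150), and with the 25-bp window it was 1.32 points (exact test, adjusted p = 0.141). The nearer intronic peaks had 4.22%, a difference of 2.39 points (interval 0.24 to 4.84) that did not pass Fisher's exact test (p = 0.0312, adjusted p = 0.499). The remote intergenic peaks had 6.86%, and the difference was -0.25 points (interval -3.50 to 2.76, Fisher's exact test, adjusted p = 1). In the replicates' own entries, the deep intronic share exceeded that of promoters by 3.61 ± 0.23 points and that of nearer introns by 2.54 ± 0.49 points (SD, n = 3), in 3 of 3 replicates each. It exceeded that of remote intergenic entries by 0.29 ± 0.61 points, in 2 of 3. These entries largely overlap the IDR peaks and are read from 1 genome sequence. The values therefore largely recount the same sites and are no separate support. Over the whole width of the peak, 118 members (19.0%) held a Tinman site, against 13.8% of all IDR peaks. Widths were not equal, with 64.7% of members and 55.2% of all IDR peaks at 430 bp. The part of width was not tested, and whole peaks were not compared with the nearer intronic or remote intergenic classes.

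The 41 members with a Tinman site at the summit lay in 39 host genes. Their median score was 235.1 (quartiles 181 and 329.9), against 225.5 (178.7 and 332.2) in members without, and 31 of them (75.6%) were found in all 3 replicates, against 68.9%. No test was made of these differences. The highest of them was the rdx member of rank 200, followed by a member in sbb of rank 323 with ranks 339, 246 and 393 in the replicates. The dpp member, in the gene of a BMP ligand that maintains tin expression in the dorsal mesoderm, had rank 742 with ranks 963, 678 and 746. Its summit lay 5267 bp from a TSS in an intron of 26006 bp. Members in CG43980 (rank 923), CG6966 (rank 1010) and Lim1, a LIM-homeodomain factor (rank 1046), came next.

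The other 15 motifs were searched in the same windows on both strands, and the share of all IDR summits that holds each is given with it. Of the motifs of mesoderm factors, the Mef2 consensus, bound by the muscle factor Mef2, was at 6.13% of member summits and 3.39% of left flanks (all IDR summits 6.45%, exact McNemar test, p = 0.0363, adjusted p = 0.194), and the Twist E-boxes CATATG or CACATG were at 5.97% and 8.06% (all 6.48%). The T-box core GGTGTGA was at 0.484% of both (all 0.871%), the GATA core GATAAG at 5.16% and 3.71% (all 5.86%) and the forkhead core TGTTTAC at 1.77% and 1.61% (all 2.51%). None of these 5 passed against the left flank at these settings. The Mef2 consensus did with 100 bp either side (6.77 points, exact McNemar test, adjusted p = 0.000422) and at a distance limit of 2500 bp, which takes in further peaks (2.96 points, exact McNemar test, adjusted p = 0.0249). It passed in no other setting run, with 2.90 points against the right flank (exact McNemar test, adjusted p = 0.0614) and 1.45 points with 25 bp either side (exact McNemar test, adjusted p = 0.431). In the replicates' own entries, which largely overlap the members, its summit share was 3.20 ± 0.46 points above the left flank (SD, n = 3).

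Of the remaining motifs, the homeodomain core TAATTA was at 8.71% of member summits and 6.45% of left flanks (all 8.66%), GAGAG at 10.6% and 14.03% (all 9.71%), the E-box CAGCTG at 1.77% and 3.87% (all 4.25%, exact McNemar test, p = 0.0351, adjusted p = 0.194), and the Zelda core CAGGTAG at 0.484% and 0.806% (all 0.508%). The effector cores of signalling were also rare. CTTTGAT of TCF was at 2.58% and 1.45% (all 1.92%), TGAGTCA of AP-1 at 1.29% and 1.61% (all 1.05%) and GTGGGAA of Su(H) at 0.806% and 2.26% (all 1.13%). The 7-base A run AAAAAAA was at 14.7% and 12.4% (all 11.8%), and the DRE, TATCGATA, was in 0 of 620 summits and 0 flanks (all 2.58%). A count of 0 allows a share of up to 0.484% by the limit of 3 counts, and the Wilson 95% upper bound is 0.616%. The CA repeat CACACAC alone passed the test against the left flank at these settings. It was in 10 member summits (1.61%) and 36 left flanks (5.81%), with 2.11% over all IDR summits, a difference of -4.19 points (exact McNemar test, adjusted p = 0.00250). The difference was -3.94 points among the 254 members of the higher-scoring 2754 IDR peaks (exact test, adjusted p = 0.494) and -2.58 points with the flank at 1000 bp (exact test, adjusted p = 0.0723). The Mef2 consensus was not alone in passing the exact McNemar test with 100 bp either side and at 2500 bp. In these settings TAATTA (5 and 3.37 points) and CAGCTG (-3.39 and -2.25 points) passed too. The A run passed with 100 bp either side (8.87 points), and CAGCTG also passed against the right flank (-3.71 points). The Mef2 consensus and TAATTA can overlap. Summits have a lower GC content than flanks, and its part in the shares of AT-rich motifs such as the A run was not tested.

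Against promoter summits, 4 of the 16 motifs passed Fisher's exact test. Beside the Tinman site, the A run was commoner at deep intronic summits, 14.7% against 10.1% (difference 4.63 points, exact test, adjusted p = 0.00511). The DRE and an E-box were rarer there. The DRE, the element of the factor DREF that is typical of housekeeping promoters, was at 0% of deep intronic and 5.04% of promoter summits (difference -5.04 points, exact test, adjusted p = 8.29e-12). The E-box CAGCTG was at 1.77% and 5.78% (difference -4.01 points, exact test, adjusted p = 7.2e-05). Among the 2754 higher-scoring IDR peaks the DRE alone was called. None of the 16 motifs passed against the nearer intronic peaks (1 had an unadjusted p under 0.05) or against the remote intergenic peaks (0 had), by the same test.

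**Figure D5:**
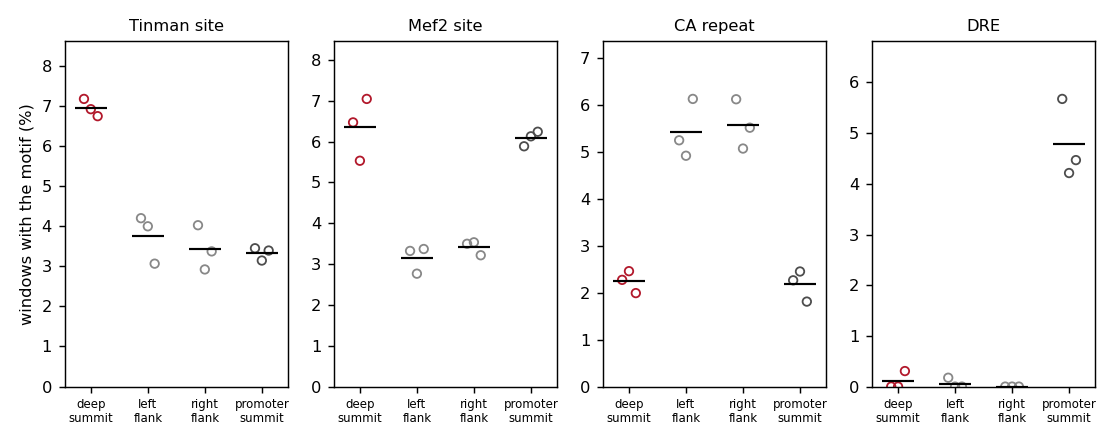
Percent of windows of 50 bp either side with the Tinman site, the Mef2 site, the CA repeat and the DRE at deep intronic summits, in their left and right flanks and at promoter summits, in the 5508 highest entries of each replicate (3 points, with their mean as a line); the vertical axes differ. Tinman sites average 6.94% at deep intronic summits and 3.75% in the left flanks, and the DRE averages 4.79% at promoter summits.

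Among all 7-base words, those with the highest ratio of member summits to flanks were AT-rich. ATAAGAT was first, in 26 summits and a mean of 3.5 in the flanks (ratio 2.67 after 10 was added to each), followed by TATATCA (28 and 4.5) and GTTAAAA (37 and 9). CACTGAG, with rank 12, was the most GC-rich word among the 20 highest, in 25 summits and 5 flanks. The Tinman words stood far lower, TCAAGTG at rank 537 with 22 summits and 11.5 flanks and TTAAGTG at rank 624 with 19 and 10, of 8181 words. These ranks are a description and carry no test.

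The members lay in 339 host genes, 18.3% of the 1852 protein-coding genes that have any sequence meeting the position rule. A single member was found in 197 hosts, 2 members in 69 and 3 or more in 73, which together held 291 members. For 17 members transcripts of several genes overlap at the summit, and each is counted as a host. Hosts had a median of 18.8 kb of such sequence, against 4.23 kb in the other 1513 genes. Of the 432 genes with over 20 kb of it, 166 (38.4%) were hosts. A promoter peak was present at 126 hosts (37.2%) and at 401 of the other genes (26.5%). Long genes have more room for both kinds of peak, and the part of length was not tested.

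The host with most members was kirre, which encodes an immunoglobulin-type adhesion protein that attracts fusion partners to muscle founder cells. Its 12 members spread over 328 kb of X, from 11732 to 36657 bp from the nearest TSS, with scores from 149.1 to 360.4. Of them, 9 were found in all 3 replicates, where 69.4% of all members were. A Tinman site was at the summit of 0 of them, against 6.61% of all members. These counts are small and were not tested. The highest-scoring kirre member had ranks 1860, 1769 and 1387 in replicates 1, 2 and 3. The density in kirre, 51.4 members per Mb of its 233.7 kb, was above the 20.5 of all deep intronic sequence, as in the other hosts with many members, which were picked for their number.

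Next came sbb and hth with 7 members each, and tara, fz, rdx, Hr4 and pnt were the highest-scoring hosts with 6. The sbb members ran from a score of 173.8 to 1223, and 2 of the 7 held a Tinman site (6.61% of all members did). Those of hth, the homeodomain partner of Hox proteins, ran from 147.6 to 411.4 over 92.8 kb. The 6 tara members were all found in 3 replicates (69.4% of all members were), and lay in 16.1 kb of qualifying sequence, or 372.1 per Mb. Neither the sbb nor the tara count was tested. The highest pnt member, in the gene of an ETS factor of the EGF receptor pathway, had ranks 719, 569 and 800.

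Gene lists chosen for the mesoderm and for other tissues were read beside the values for all eligible genes, 18.3% hosts, 20.5 members per Mb and a median of 0 members per gene. They carry no test, lists share some genes, and a single gene can hold most members of a list. Members per Mb fell with distance from a TSS, from 31.7 between 5000 and 7500 bp to 6.26 beyond 25000 bp. The lists were not matched for that distance or for qualifying sequence per gene. The part of either in the differences between lists, in density or in share of hosts, was not tested. Of 9 eligible genes of the heart and dorsal mesoderm list, 4 were hosts, with 7 members at 57.1 per Mb, or 32.8 without ush. They were how, an RNA-binding protein of muscle and tendon (rank 1299, replicate ranks 1293, 860 and 1831), ush, a cofactor of GATA factors that acts in heart development, Mef2, the main muscle differentiation factor (rank 3163, replicate ranks 3898, 4232 and 3268), and tup, a LIM-homeodomain factor of the heart and dorsal muscles (rank 3798, replicate ranks 4910, 2604 and 3708). Of the 4 ush members, the highest had rank 1731 with replicate ranks 1280, 2163 and 1809. None of these 7 members was in the highest-scoring quintile of the IDR list, which held 13.4% of all deep intronic members. With 7 members a count of 0 cannot be told apart from that share. Their peaks at other positions are not part of this count.

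The lists of other mesoderm genes were small. In the early mesoderm and FGF list, 4 of 8 eligible genes were hosts (9 members, 57.5 per Mb). NetA, a netrin, had 6 of them, with the highest at rank 1026 and 25.9 per Mb in the list without it, and the others were Mef2, the FGF ligand ths (rank 3804) and NetB (rank 4997). In the visceral mesoderm list 3 of 7 were hosts, at 20.7 per Mb, or 13.3 without Fas3. They were the adhesion protein Fas3 (rank 812), jeb, the ligand of the Alk receptor (rank 1894), and the EGF receptor ligand vn (rank 2629, with ranks 2151, 1751 and 7505 in the replicates, so that replicate 3 lacked it among its highest 5508). For somatic muscle identity 3 of 13 were hosts, tey (rank 4077), caup (rank 4474) and ab (rank 4663), at 20.03 per Mb, or 13.7 without tey. For muscle structure and fusion 3 of 17 were, how, kirre and the Z-disc protein Zasp52 (rank 3428), at 33.1 per Mb. kirre held 12 of these 14 members, and without it the list had 10.6 per Mb.

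Other developmental lists also held members. Of the genes of the Dpp, Wg, EGFR, Notch and Hh pathways, 16 of 26 were hosts, with 35 members at 76.3 per Mb, or 75.5 without fz. The receptors fz (rank 159) and N, the Notch receptor (rank 400, replicate ranks 626, 278 and 430), led them, followed by pnt (rank 630) and sog, an antagonist of BMP ligands (rank 705, replicate ranks 1128, 563 and 639). Polycomb and trithorax genes had 4 hosts of 13 and 62.5 members per Mb, or 57.4 without jing, which held 6 of the 11 members. The hosts were osa, Psc (rank 606), jing (rank 1120) and trx (rank 1455). Ecdysone and nuclear receptor genes had 9 hosts of 14 and 51.2 per Mb, or 39.4 without Hr4. They were led by Hr3, Hr4, EcR, the ecdysone receptor (rank 763, replicate ranks 506, 722 and 1294), and Eip75B (rank 820). Hox genes and cofactors had 4 hosts of 11 and 49.0 per Mb, or 41.0 without hth. The hosts were Antp (rank 711), hth, Ubx (rank 2826) and pb (rank 4074).

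Ion channel and synapse genes had 2 hosts of 34, dnc and Ca-beta, with 3 members in 1.02 Mb, or 2.93 per Mb, and 0.994 without Ca-beta. Neural transcription factors had 2 of 20, luna and sba, at 6.43 per Mb, or 1.94 without luna. RNA-binding genes with long introns had 7 of 17, led by how, sm, msi and pum, at 9.16 per Mb, or 6.52 without pum. That share of hosts (41.2%) was above the 18.3% of all eligible genes. It was close to the 38.4% of genes with over 20 kb of qualifying sequence, and the part of length was not tested. Adhesion and axon guidance genes had 22 of 64 and 56 members at 21.98 per Mb, or 19.0 without kirre, close to the value of all deep intronic sequence. Sema1a, Fas3, DIP-alpha and NetA were highest. None of the 16 ribosomal protein genes had any qualifying sequence.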

How the data were processed

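The authors deposited narrowPeak lists on dm6 for each replicate (30000, 29999 and 24711 entries on the 6 arms), for all replicates pooled and after IDR. The deposited score, in the signal column, is a value of the peak caller with no fixed range. The deposited −log10 q values are 4.05 at every IDR peak and could not rank them. No label or header names an aligner, a peak caller or the IDR threshold. Read counts are not part of the lists, so depth is unknown. The dm3 lists were not used. Genes came from Ensembl release 115 (BDGP 6.54) and sequence from RefSeq Release 6. Shares were compared by Fisher's exact and exact McNemar tests (scipy 1.17.1), with BH adjustment over 4 comparisons or 16 motifs, at a threshold of 0.05. The tests were checked on simulated data. Named hosts are those of the 15 highest-scoring members, the 8 hosts with most members, up to 4 hosts per gene list, the members nearest to and farthest from the distance limit, and those of printed sequences; other hosts were picked after their values were seen. Members and lists were chosen with earlier results of these data known. The labels call the replicates biological and say nothing more of their origin. The summit sequences of the 6 highest-scoring members are not reported here.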

Additional observations from a re-analysis of the deposited data

How the results depend on the processing

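Of 185 repeats under another setting, 142 counted as kept. A tested result had to keep its direction and side of the threshold, and a share or density to stay within the spread of the replicates. A count of motifs or host genes could change by a limited factor, as from 4 to 3 or 5 motifs called against promoters. The lower IDR pass rate, the lower share in the top 20% against all other IDR peaks and the lower GC content at summits were kept under every alternative run. The deep intronic share of 11.3% was 17.8% with a distance of 2500 bp, 5.17% with 10000 bp, 9.73% with TSSs of every biotype, 9.22% among the higher-scoring 2754 peaks and 17.0% over all pooled entries. The density of 20.5 per Mb was 24.7, 14.6 and 8.41 with 2500 bp, with 10000 bp and among the higher-scoring 2754 peaks and 15.4 to 16.1 without a replicate, where fewer peaks are kept by construction. The first-intron share of 41.8% was 48.3%, 31.6% and 48.4% in the same 3 settings, 43.9% by the longest intron and, leaving out each replicate, 42.4% to 43.97%. First introns made up 24.4% of the deep intronic sequence at 5000 bp by the shortest intron. That background is not given for 2500 bp, 10000 bp or the longest intron, so those shares cannot be set against 24.4%. The number of host genes, 339, was 513, 159 and 180.

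Members found in all 3 replicates, at -3.60 points from the rest, differed by -6.20 points at 10000 bp (Fisher's exact test, adjusted p = 0.0407), -10.1 points with 3000 entries, 0.11 points among the higher-scoring 2754 peaks and 0.79 points with all entries. For 2 replicates at a time, an alternative chosen after seeing the data, the range was -5.52 points without replicate 2 (adjusted p = 0.00345, Fisher's exact test) to -0.52 points without replicate 1. Against promoters the same difference was 0.12 points among the higher-scoring 2754 peaks, 0.90 points with all entries and, leaving out each replicate, -7.67 to 0.11 points, and against nearer introns it was 0.30 points with all entries. Against remote intergenic peaks, the share in the highest part by score differed by 0.19 points with all TSSs and by 0.46 points for the top 2754 peaks. The Tinman excess was -0.32 points with the 25-bp window and 4.19 points against the right flank. Motifs called against the flank, 1 in the main setting, numbered 4 at 2500 bp, 5 with 100 bp either side, 3 against the right flank, and 0 among the higher-scoring 2754 peaks and at a 1000-bp flank. Against promoters, 4 became 1 among the higher-scoring 2754 peaks and 2 with the 25-bp window. The cause of these changes was not tested. Ranking by −log10 q was not run, because the values are constant. No paired analysis was possible because there is 1 group.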
